A study of Mus musculus with 6 samples.

Results

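The organic ion and drug transporters of the mouse kidney were taken as the genes whose symbols begin with Slc22a, Slco, Slc47a, Abcb, Abcc or Abcg followed by a digit. This choice by name, with no use of measured values, took 53 of the 15302 genes in the deposited table. The set held 23 Slc22, 2 Slc47 and 8 Slco carriers together with 8 Abcb, 9 Abcc and 3 Abcg transporters. Kidneys were compared between 3 WT mice, labelled C57BL/6 (replicates 1 to 3), and 3 Tsc1-KO mice, labelled Tsc1f/f/Aqp2 Cre (replicates 4 to 6), all aged 45 days. In the Tsc1-KO mice both Tsc1 alleles are floxed and Cre is driven by the promoter of Aqp2, the water channel of collecting duct principal cells, so the gene is removed from those cells and kept elsewhere. The WT mice are labelled with neither the floxed alleles nor the Cre, so the loss of Tsc1 and an effect of the strain, the floxed alleles or the Cre itself cannot be told apart. Total RNA of the whole kidney was selected for poly A and sequenced, 1 library per mouse, and the level of each gene was deposited as FPKM (fragments counted for a gene, divided by its transcript length and by the mapped fragments of the library), which allows levels of different genes to be set side by side.

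The kidney clears drugs, toxins and metabolic waste by moving them through the cells of the proximal tubule. Organic anions and cations enter these cells from the blood through carriers of the Slc22 family, and they leave into the urine through proton exchangers of the Slc47 family and through ATP-driven exporters of the Abcb, Abcc and Abcg families. Slco carriers exchange larger amphipathic anions such as conjugated steroids, thyroid hormones and prostaglandins, and some Slc22 carriers work in the other direction, taking urate or carnitine back from the urine.

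The libraries held from 19568856 to 24647430 reads in the listed genes. Tsc1 itself was at 8.46, 8.91 and 7.49 FPKM in the WT and at 7.69, 7.61 and 8.23 FPKM in the Tsc1-KO libraries (log2 fold change -0.07), a level from whole kidney that does not check a deletion restricted to principal cells. WT replicate 3 was unlike the other WT libraries. Across genes, log2 FPKM of WT replicates 1 and 2 correlated at 0.992, whereas WT replicate 3 correlated with them at 0.977 and 0.976. With Tsc1-KO replicates 4, 5 and 6, WT replicate 3 correlated at 0.981, 0.980 and 0.974. WT replicate 2 was as close to these, at 0.981, 0.982 and 0.980. H2-Ea-ps, a pseudogene of the major histocompatibility complex, read 20.3 and 27.1 FPKM in WT replicates 1 and 2, 0.532 FPKM in WT replicate 3 and was listed at 0 in the 3 Tsc1-KO libraries. Why the WT libraries differ at this gene, and which of them are the exception, was not tested. Tested members whose groups overlapped only through WT replicate 3 are therefore given with and without it.

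Many of these genes are known to be transcribed in the proximal tubule under nuclear receptors such as HNF4, and 3 promoters are shown because they are the members' promoters that hold the letters CAAAGTTCA, which HNF4 is known to bind. They belong to Slco1a6, the member with the smallest p-value, to Abcb1a, an exporter of many drugs, and to Slc22a3, a cation carrier. The sequences are those of RefSeq on build GRCm38.p6, from 250 bases before to 50 bases after the start of the gene, and capitals mark the letters, which lie on the other strand in Slc22a3. The windows lie at chr6:142186100-142186399 on the reverse strand, at chr5:8566841-8567140 on the forward strand and at chr17:12507655-12507954 on the reverse strand.
Slco1a6: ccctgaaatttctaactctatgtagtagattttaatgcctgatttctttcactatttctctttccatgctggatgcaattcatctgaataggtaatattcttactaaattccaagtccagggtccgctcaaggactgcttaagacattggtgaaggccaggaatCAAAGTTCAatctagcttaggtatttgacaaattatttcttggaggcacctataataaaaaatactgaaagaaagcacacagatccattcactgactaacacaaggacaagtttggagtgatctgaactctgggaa
Abcb1a: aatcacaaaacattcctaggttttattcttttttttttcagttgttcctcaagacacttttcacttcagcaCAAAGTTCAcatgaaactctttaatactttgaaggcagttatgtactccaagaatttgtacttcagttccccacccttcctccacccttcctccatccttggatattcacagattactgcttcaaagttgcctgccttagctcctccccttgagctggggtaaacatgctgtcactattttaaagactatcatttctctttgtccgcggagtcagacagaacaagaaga
Slc22a3: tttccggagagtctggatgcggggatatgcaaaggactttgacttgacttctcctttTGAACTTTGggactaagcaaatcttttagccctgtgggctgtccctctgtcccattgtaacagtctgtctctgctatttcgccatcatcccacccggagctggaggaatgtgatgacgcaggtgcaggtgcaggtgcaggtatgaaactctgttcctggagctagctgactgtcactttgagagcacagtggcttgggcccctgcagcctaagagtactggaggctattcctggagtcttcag

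The first capital lay 86, 179 and 193 bases before the start of Slco1a6, Abcb1a and Slc22a3. Of the 53 members, 41 had a promoter in the RefSeq table, and 10 short motifs were searched in these on both strands. CAAAGTTCA was found in these 3 of the 41 (7.32%), against 0.448% of the promoters of all 27025 genes. The mean levels of these 3 genes were far apart, at 65.0, 0.936 and 0.132 FPKM. The related CAAAGTCCA was in 0 of the 41 members and in 0.555% of all promoters. AGGTCA, the letters bound by many nuclear receptors, was in 19.5% of the members' and 18.1% of all promoters, and its direct repeat with 1 base between the copies, which contains it, was in 0 of 41 and in 0.0481%. The antioxidant response letters TGACNNNGC were in 14.6% of the members against 14.0% of all. The core of the xenobiotic response element, GCGTG, was in 22.0% against 35.2%, the TATA letters TATAAA in 14.6% against 15.7%, CCAAT in 39.0% against 41.1%, GGGCGG in 43.9% against 38.2% and CACGTG in 4.88% against 8.09%. These matches describe the letters of the windows only.

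The kidney contained these transcripts over a wide range of levels. Mean FPKM over the 6 libraries reached 100 in 9 members (17.0% of the set, against 4.98% of all genes), lay from 10 to 100 in 17, from 1 to 10 in 16 and under 1 in 11. The most abundant was Slc22a12, the urate carrier of the brush border, with a mean of 591 FPKM and rank 75 among all genes. It was followed by Slc22a18 (293 FPKM), a carrier of unsettled substrate that lies in an imprinted cluster, by Slc47a1 (288 FPKM), which exchanges protons for cations at the brush border, and by Slc22a6 (283 FPKM). Others above 100 FPKM were the urate and drug exporter Abcg2 (180 FPKM), the cation carrier Slc22a2 (170 FPKM) and the anion carriers Slc22a7 (155 FPKM) and Slc22a8 (151 FPKM). Slc22a12 was above the others named here in every library, whereas Slc22a18, Slc47a1 and Slc22a6 overlapped in their values by library, as did Abcg2, Slc22a2, Slc22a7 and Slc22a8. The 53 members together made up 0.737, 0.654 and 0.769% of the summed FPKM in WT replicates 1 to 3 and 0.685, 0.636 and 0.646% in Tsc1-KO replicates 4 to 6, so that the groups overlapped.

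**Figure D1:**
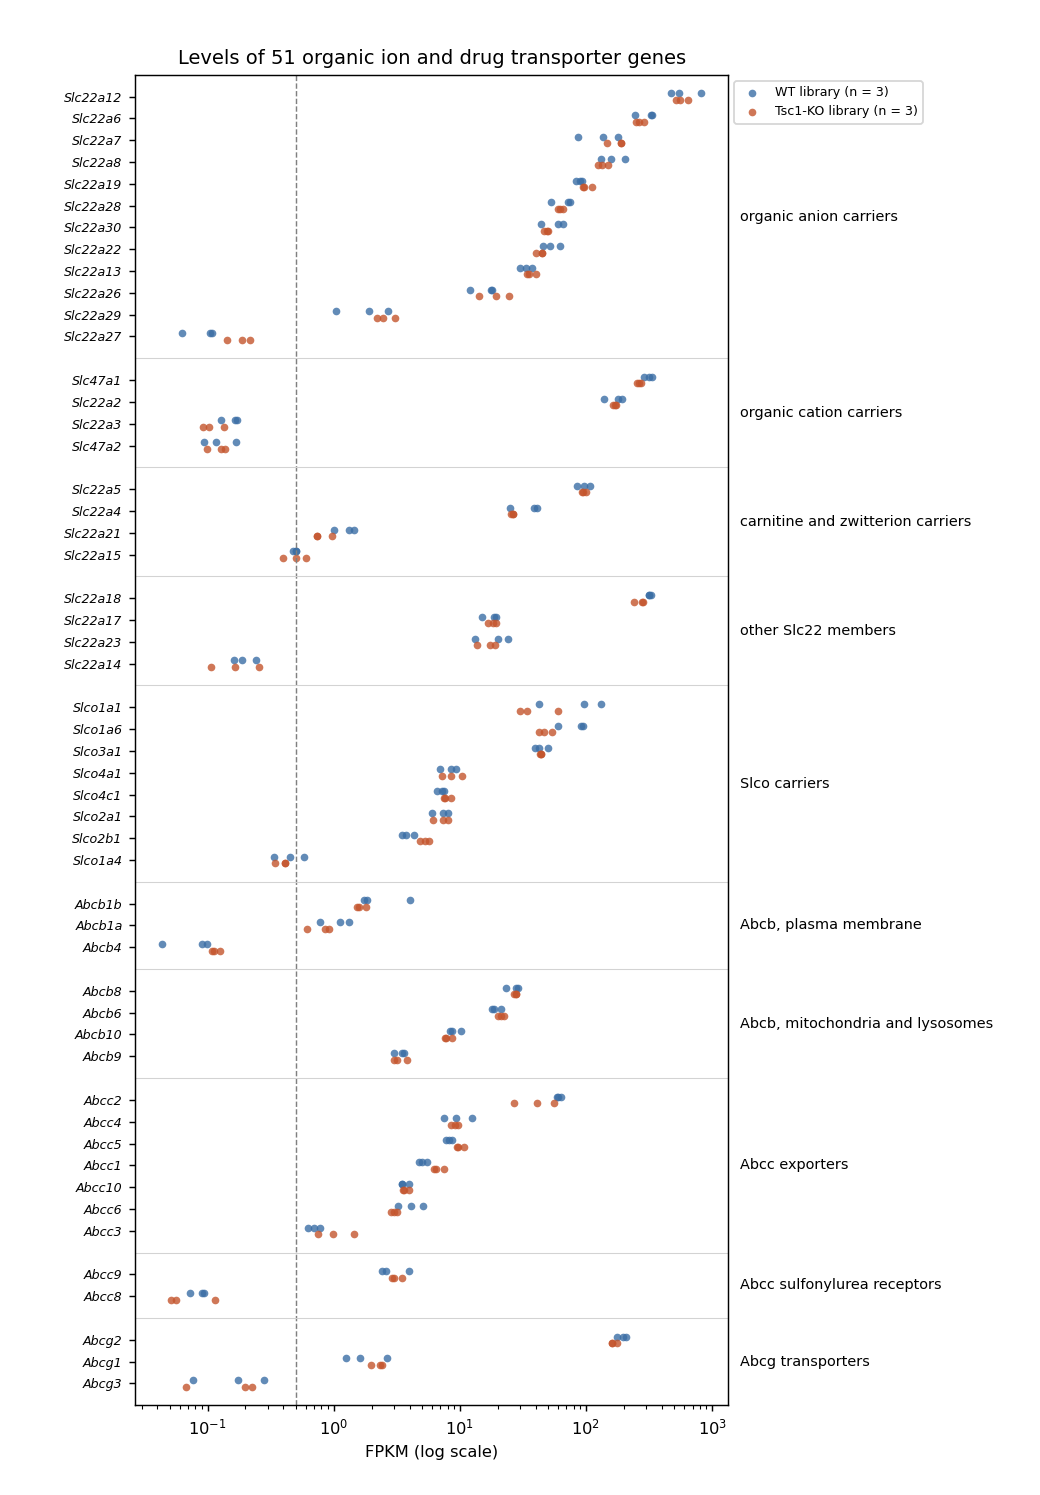
Levels of 51 of the 53 members in each library. The horizontal axis is FPKM on a log scale, each point is 1 library (blue WT, red Tsc1-KO, 3 each), members are ordered by mean within their role, and the dashed line marks the mean of 0.5 FPKM asked for testing. Slc22a12 lies farthest to the right at a mean of 591 FPKM and 9 members lie left of the line by their mean.

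Genes of 1 family that lie beside each other in the genome were read at very different levels. In the RefSeq gene order, 28 of the 53 members lay in 9 runs in which at most 2 other protein-coding genes separated 1 member from the next. Slc22a3, a cation carrier used widely outside the kidney, had a mean of 0.132 FPKM beside Slc22a2 at 170 FPKM. Slc47a2 was at 0.124 FPKM beside Slc47a1 at 288 FPKM. In the largest run, of 8 anion carriers, mean levels went from 0.137 FPKM for Slc22a27 and 2.23 FPKM for Slc22a29 to 94.8 FPKM for Slc22a19 and 283 FPKM for Slc22a6. Slco1a4 was at 0.425 FPKM beside Slco1a1 and Slco1a6 at 65.6 and 65.0 FPKM. Some of these neighbours are near copies: 13 members shared over 5% of the 50-base words of their annotated transcripts with another gene, 9 of them with another member. The shares were 53.9% for Slc22a28 and 35.9% for Slc22a30, 30.5% for Slc22a27 and for Slc22a29, 27.1% for Slc22a5 and 24.2% for Slc22a21, and 17.0% for Abcb1a and 18.3% for Abcb1b. They were 90.3% for Abcb6, against the annotated transcript Gm29253, 36.0% for Slc22a13, against the pseudogene Slc22a13b-ps, and 5.60% for Slco1a6. The values of these members are uncertain, as the counting could leave shared reads out or assign them to either gene. The read length is not given in the sources used here, so the shares of 50-base words are only a guide to how many reads are ambiguous.

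None of the members passed the test between Tsc1-KO and WT mice. Of the 53, 44 reached a mean of 0.5 FPKM and were tested, and 9 did not (Abcb4, Abcc8, Abcg3, Slc22a3, Slc22a14, Slc22a15, Slc22a27, Slc47a2 and Slco1a4). In limma, fitted to log2(FPKM + 0.1) of all 13230 genes tested with Benjamini-Hochberg adjustment over them, 0 of the 44 had an adjusted p under 0.05. Of all genes, 2.11% passed, 1.87% being higher and 0.234% lower in Tsc1-KO mice. The smallest adjusted p among the members was 0.089 in limma, for Slco1a6. By limma-voom on reads recovered from the deposited values, 0 of the 44 passed as well, against 1.96% of all genes. At an unadjusted p under 0.05, limma gave 12 of the 44 members (27.3%), 3 higher and 9 lower, against 19.2% of all genes, 13.4% higher and 5.72% lower, and limma-voom gave 14 of the 44 against 19.3%. In 9 members (20.5%) every Tsc1-KO library was below every WT library, against 8.07% of all genes, and in 4 members (9.09%) every Tsc1-KO library was above, against 17.3% of all genes. A negative log2 fold change was found for 24 of the 44 (54.5%) and for 40.2% of all genes. For 1 gene and 3 mice in each group, the smallest p that an exact permutation test can give is 0.1. The median log2 fold change of the 44 members was -0.03, beside 0.04 for all genes tested, and their values ran from -1.04 for Slco1a1 to 0.51 for Slc22a29.

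**Figure D2:**
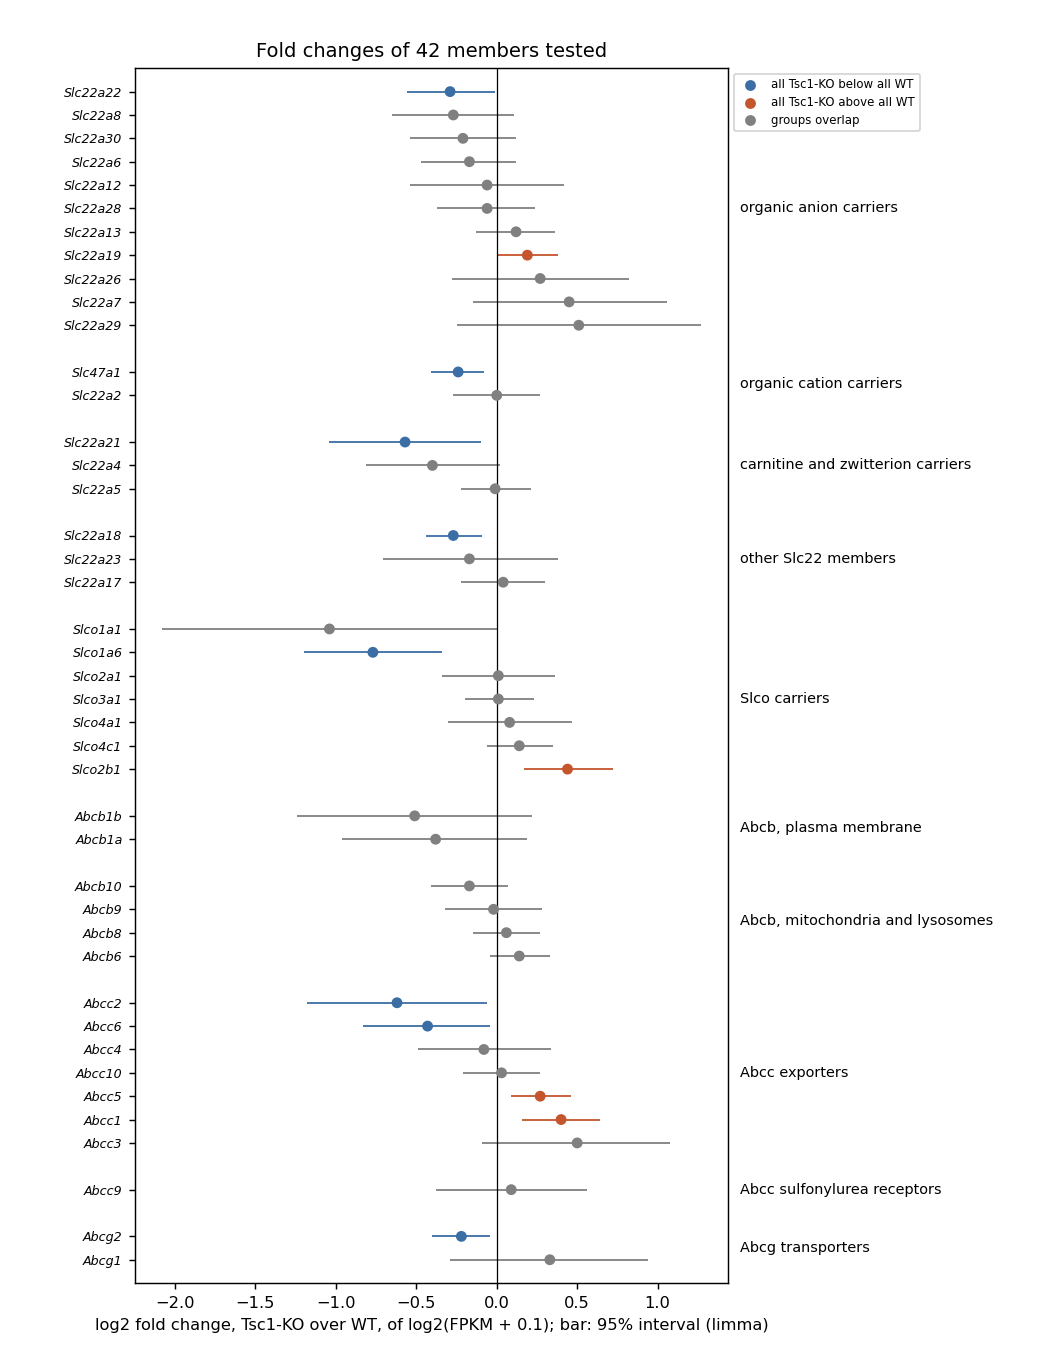
Log2 fold changes of 42 of the 44 members tested. The horizontal axis is the difference of mean log2(FPKM + 0.1), Tsc1-KO minus WT, each point is a member, the bar is its 95% interval from limma, blue marks the 8 members drawn with every Tsc1-KO library below every WT library, red the 4 with every one above, and grey those whose libraries overlap. Most points lie within 0.5 of zero, with Slco1a1 at -1.04 and Slco1a6 at -0.77 farthest to the left.

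The makeup of the kidney RNA differed between the groups in other respects, which are given because most members are known as proximal tubule genes. Markers of the proximal tubule were all present: 22 of 22 were tested and 0 passed in limma, with a median log2 fold change of -0.09. Their summed level was from 44212 to 56223 FPKM in WT and from 41702 to 48076 FPKM in Tsc1-KO libraries. Without Kap, an androgen-driven transcript that makes up most of that sum, it was from 17251 to 17854 FPKM in WT and from 14884 to 16299 FPKM in Tsc1-KO libraries, which did not overlap. Of 11 intercalated cell markers, 9 were higher in limma. The other 2 had negative log2 fold changes, and for 1 of them every Tsc1-KO library was below every WT library. The sum of all 11 went from 220 to 259 FPKM in WT and from 390 to 491 FPKM in Tsc1-KO libraries. Of 10 fibroblast and smooth muscle markers, 3 were higher in limma, with sums of 78.4 to 92.6 FPKM in WT and 117 to 186 FPKM in Tsc1-KO libraries. The part of these shifts in the members' values was not tested, and in whole kidney RNA fewer cells of a type and less RNA per cell cannot be told apart. When all libraries were scaled to equal proximal tubule markers, the median log2 fold change of all genes moved from 0.04 to 0.16 and that of the members from -0.03 to 0.09. This scaling shifts each library as a whole, so the log2 fold change of every gene moves up by the same amount. Such a move is therefore no property of a single gene.

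The carriers of organic anions, which make up the first step of anion secretion and the return of urate, did not pass the test in either direction. Of 12 members, 11 were tested, 6 had a lower and 5 a higher mean in Tsc1-KO mice, and their summed level was from 1293 to 1790 FPKM in WT and from 1399 to 1581 FPKM in Tsc1-KO libraries. Slc22a6, known as OAT1, which takes up organic anions from the blood in exchange for dicarboxylates, read 328, 246 and 331 FPKM in WT replicates 1 to 3 and 287, 261 and 248 FPKM in Tsc1-KO replicates 4 to 6. The WT values were on both sides of the Tsc1-KO values, and the log2 fold change was -0.17 (SE 0.126, limma adjusted p = 0.506). Its neighbour Slc22a8, known as OAT3, which has the same basolateral task, was at 159, 205 and 131 FPKM in the WT and at 150, 133 and 124 FPKM in the Tsc1-KO libraries. Here WT replicates 1 and 2 were above all Tsc1-KO libraries and WT replicate 3 was among them, with a log2 fold change of -0.27 (SE 0.160, limma adjusted p = 0.424). It became -0.42 without WT replicate 3 (limma adjusted p = 0.0927) and -0.10 without WT replicate 2 (0.714).

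Slc22a12, known as URAT1 in humans, was at 547, 469 and 817 FPKM in the WT and at 643, 554 and 517 FPKM in the Tsc1-KO libraries. WT replicate 3 was the highest library and WT replicate 2 the lowest, and the log2 fold change of -0.06 (SE 0.202, limma adjusted p = 0.898) changed its sign without WT replicate 3, to 0.17, and with libraries scaled to proximal tubule markers, to 0.06. Its 95% interval ran from -0.54 to 0.42. Slc22a7, known as OAT2, was at 136, 85.8 and 178 FPKM in the WT and at 191, 148 and 189 FPKM in the Tsc1-KO libraries. The groups overlapped through WT replicate 3, and the log2 fold change was 0.45 (SE 0.254, limma adjusted p = 0.385). For Slc22a7 it became 0.69 without WT replicate 3 (limma adjusted p = 0.089) and 0.17 without WT replicate 2 (0.627). The prostaglandin carrier Slc22a22 read 61.9, 45.4 and 52.0 FPKM in the WT and 44.7, 45.0 and 40.1 FPKM in the Tsc1-KO libraries. All Tsc1-KO values were below the WT ones, but the lowest WT library was only 1.01 times the highest Tsc1-KO library, and the log2 fold change of -0.29 (SE 0.116) did not pass (limma adjusted p = 0.245).

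The remaining anion carriers showed no common direction. Slc22a19, known as OAT5, was at 83.3, 89.3 and 93.2 FPKM in the WT and at 96.0, 95.5 and 112 FPKM in the Tsc1-KO libraries. It was the only anion carrier tested whose Tsc1-KO libraries were all above the WT ones, with a log2 fold change of 0.19 (SE 0.0806, limma adjusted p = 0.267). Slc22a28 and Slc22a30, which share much of their sequence, had log2 fold changes of -0.06 and -0.21, and Slc22a26 and Slc22a29 of 0.27 and 0.51, with overlapping groups in each case. Slc22a29 was read at 1.04 to 2.70 FPKM in the WT libraries alone, a spread of 2.59 times. Slc22a13, a urate and nicotinate carrier of the brush border, was at 29.9, 33.7 and 37.6 FPKM in the WT and at 35.1, 33.9 and 40.5 FPKM in the Tsc1-KO libraries, which overlapped. Slc22a27 stayed under the filter, at 0.0624 to 0.108 FPKM in the WT and 0.143 to 0.217 FPKM in the Tsc1-KO libraries.

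In the organic cation route, carriers such as Slc22a2 bring cations in from the blood and Slc47a1 passes them to the urine, and 0 of its members passed the test in limma. Summed over its 5 members, the level was from 622 to 721 FPKM in WT and from 585 to 628 FPKM in Tsc1-KO libraries. Slc47a1, known as MATE1, was at 316, 289 and 331 FPKM in the WT and at 272, 265 and 253 FPKM in the Tsc1-KO libraries. The 3 Tsc1-KO values all lay below the WT values, and the log2 fold change of -0.24 (SE 0.0690), a fitted difference of -15.4%, did not pass (limma adjusted p = 0.130). With libraries scaled to proximal tubule markers, its log2 fold change was -0.12, by the shift common to all genes. Slc22a2, known as OCT2 and the main renal cation uptake carrier, was at 178, 140 and 192 FPKM in the WT and at 173, 165 and 169 FPKM in the Tsc1-KO libraries. The Tsc1-KO values lay inside the range of the WT values, and the log2 fold change was 0.00 with a 95% interval from -0.27 to 0.27, or -0.04 with median-of-ratios scaling. Slc22a3 and Slc47a2 were both at most 0.172 FPKM in every library.

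Of the carriers of carnitine and related zwitterions, 3 are neighbouring genes, and they had unequal values. Slc22a5, known as OCTN2, which reabsorbs carnitine, was at 107, 97.0 and 84.8 FPKM in the WT and at 94.4, 99.4 and 92.6 FPKM in the Tsc1-KO libraries. These values overlapped fully, with a log2 fold change of -0.01 that became 0.11 with libraries scaled to proximal tubule markers, and a 95% interval from -0.22 to 0.21. Slc22a4, known as OCTN1, a carrier of the antioxidant ergothioneine, was at 41.0, 38.6 and 25.2 FPKM in the WT and at 26.4, 26.2 and 25.3 FPKM in the Tsc1-KO libraries. WT replicates 1 and 2 were well above all Tsc1-KO libraries and WT replicate 3 was the lowest of the 6, and the log2 fold change of -0.40 (SE 0.175) did not pass (limma adjusted p = 0.285). Without WT replicate 3, Slc22a4 was called lower at a log2 fold change of -0.61 (limma adjusted p = 0.00626), in a fit where 3.03% of all genes were called lower. Slc22a21, known as OCTN3 in the mouse, was at 1.46, 1.32 and 1.01 FPKM in the WT and at 0.733, 0.734 and 0.971 FPKM in the Tsc1-KO libraries. The groups did not overlap, with a log2 fold change of -0.57 (SE 0.198, limma adjusted p = 0.187), but 24.2% of its transcript words are shared with other genes, chiefly Slc22a5. Slc22a15 was at 0.400 to 0.599 FPKM and its mean of 0.496 FPKM fell just short of the filter.

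Of the other Slc22 members, Slc22a18 had WT values within 1.04 times of each other. It was at 314, 326 and 318 FPKM in the WT and at 281, 276 and 241 FPKM in the Tsc1-KO libraries. All WT mice were higher than all Tsc1-KO mice, and the log2 fold change of -0.27 (SE 0.0727), a fitted difference of -16.9%, did not pass (limma adjusted p = 0.118, 0.0909 in limma-voom). Slc22a17, a receptor for iron-carrying lipocalin, was at 15.1 to 19.2 FPKM in the WT and 16.7 to 19.4 FPKM in the Tsc1-KO libraries, with a log2 fold change of 0.04. Slc22a23, an orphan carrier, was at 13.2 to 24.0 FPKM in the WT and 13.6 to 19.0 FPKM in the Tsc1-KO libraries, with a log2 fold change of -0.17. The groups overlapped for both. Slc22a14 was at most 0.256 FPKM in any library.

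Among the Slco carriers, the largest differences of the whole set were those of the neighbours Slco1a6 and Slco1a1, both with a lower mean in Tsc1-KO mice. Slco1a6 was at 91.8, 60.2 and 95.3 FPKM in the WT and at 53.7, 46.2 and 42.6 FPKM in the Tsc1-KO libraries. Every Tsc1-KO library was below every WT library, WT replicate 2 being the closest to them, and the fitted difference was -41.4% (log2 fold change -0.77, SE 0.183, limma adjusted p = 0.089). Without WT replicate 2, Slco1a6 passed at a log2 fold change of -0.98 (limma adjusted p = 0.0265, where 1.44% of all genes were called), and over the 15 alternatives its log2 fold change ran from -0.98 to -0.65. Slco1a1, a brush border carrier of steroid conjugates known to depend on androgens in the mouse kidney, was at 131, 42.2 and 96.5 FPKM in the WT and at 59.8, 29.9 and 34.1 FPKM in the Tsc1-KO libraries. WT replicate 2 was below Tsc1-KO replicate 4, so the groups overlapped, and the WT values alone differed by 3.12 times. The log2 fold change of -1.04 (SE 0.440) did not pass (limma adjusted p = 0.261).

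WT replicate 2 was also the lowest of the WT libraries for Kap, at 27000 FPKM beside 38400 and 36400 FPKM in WT replicates 1 and 3, and Kap was at 31800, 29500 and 26800 FPKM in the Tsc1-KO libraries. Whether these values have a part in those of Slco1a1 and Slco1a6 was not tested.

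The other Slco carriers included 1 with a higher mean throughout. Slco2b1, a carrier of steroid sulfates and many drugs, was at 3.72, 4.37 and 3.51 FPKM in the WT and at 5.70, 4.83 and 5.33 FPKM in the Tsc1-KO libraries. The 3 Tsc1-KO values exceeded the WT values, and the fitted level was 36.0% higher (log2 fold change 0.44, SE 0.115, limma adjusted p = 0.107). It passed when libraries were scaled to proximal tubule markers, at a log2 fold change of 0.56 (limma adjusted p = 0.0452, where 3.83% of all genes were called higher). Slco4c1, a carrier of digoxin and thyroid hormone in the proximal tubule, was at 6.64 to 7.55 FPKM in the WT and 7.44 to 8.47 FPKM in the Tsc1-KO libraries. Slco3a1, at 39.2 to 49.9 FPKM in the WT and 43.5 to 44.4 FPKM in the Tsc1-KO libraries, the prostaglandin carrier Slco2a1 and the thyroid hormone carrier Slco4a1 had log2 fold changes of 0.01, 0.01 and 0.08. All of these overlapped between the groups. Slco1a4 was at most 0.585 FPKM and was not tested.

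**Figure D3:**
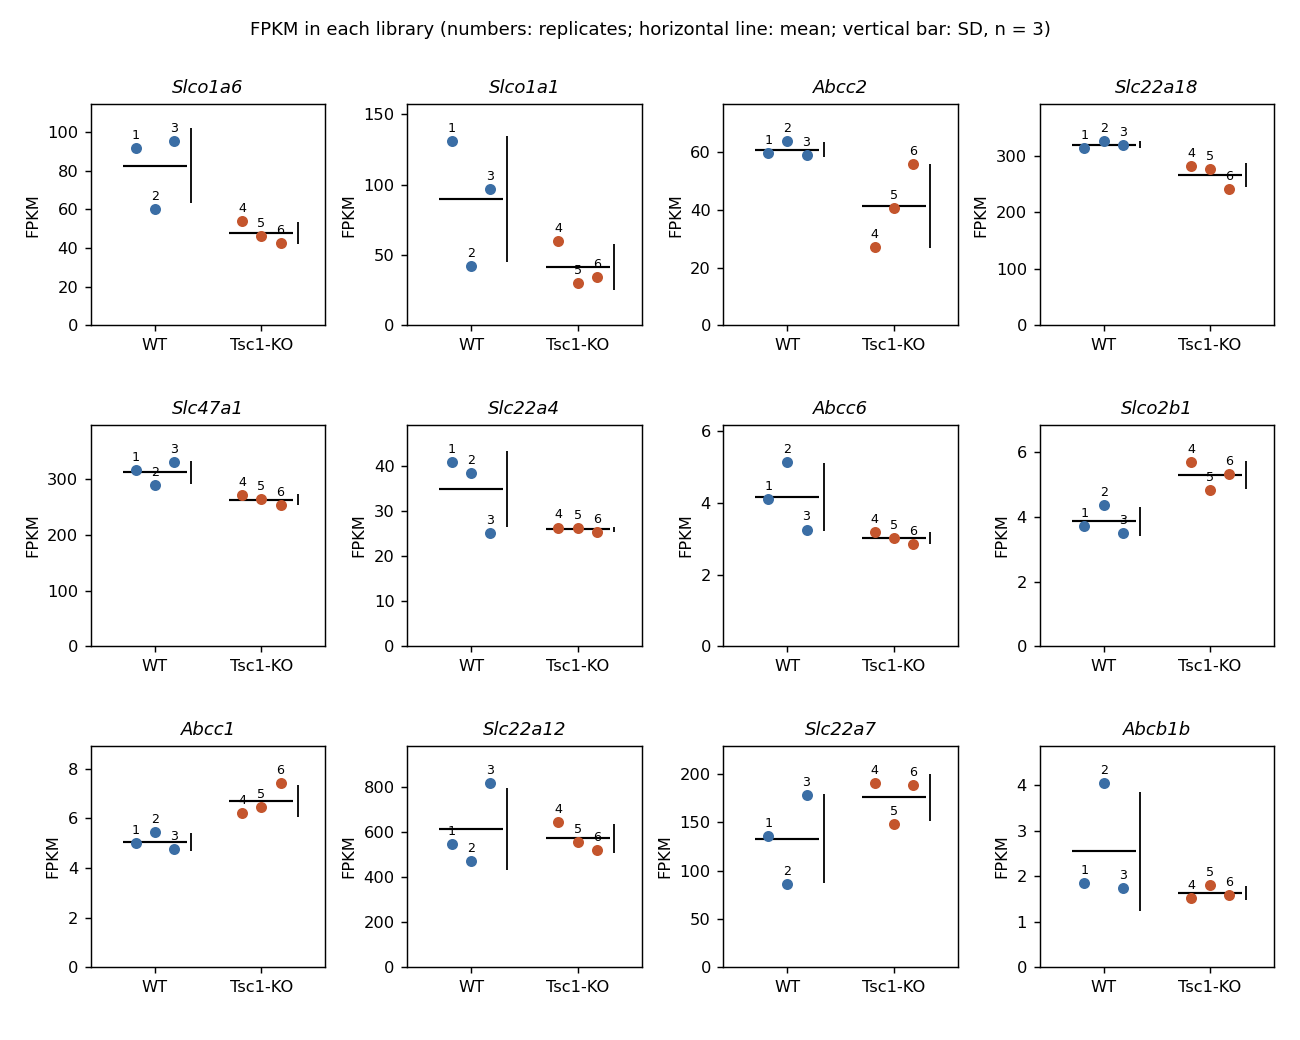
FPKM of 12 members in each library. Each panel has its own vertical axis in FPKM from 0, each point is 1 library marked with its replicate number (blue WT 1 to 3, red Tsc1-KO 4 to 6), the horizontal line is the group mean and the vertical bar the SD over 3 mice. For Slco1a6, Abcc2, Slc22a18, Slc47a1, Abcc6, Slco2b1 and Abcc1 the groups do not overlap, whereas for Slc22a4 only WT replicate 3 lies at the level of the Tsc1-KO libraries and for Abcb1b only WT replicate 2 stands out, at 4.05 FPKM.

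The ATP-driven exporters of conjugated anions, the Abcc family, included members with higher and members with lower means. Of the 7 exporters, all were tested and 0 passed in limma. In every Tsc1-KO library 2 were higher (28.6%, against 17.3% of all genes) and 2 were lower (28.6%, against 8.07%), small counts from which no family pattern can be read. Abcc2, known as MRP2, which sends glucuronide and glutathione conjugates into the urine, was at 59.7, 63.9 and 59.0 FPKM in the WT and at 27.0, 40.8 and 56.0 FPKM in the Tsc1-KO libraries. The WT values were close together and the Tsc1-KO values spread over 29.0 FPKM, with replicate 6 next to the WT range, and the log2 fold change was -0.62 (SE 0.237, limma adjusted p = 0.221). Over the 15 alternatives it ran from -0.87 to -0.35. Abcc6, whose loss is known to cause calcification of soft tissue, was at 4.11, 5.15 and 3.26 FPKM in the WT and at 3.19, 3.02 and 2.86 FPKM in the Tsc1-KO libraries. WT replicate 3 was barely above the Tsc1-KO libraries, and the log2 fold change of -0.43 (SE 0.167, limma adjusted p = 0.229) became -0.59 without that library and then passed (limma adjusted p = 0.0422).

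Abcc1, known as MRP1, a basolateral exporter of glutathione conjugates found in most tissues, was at 4.99, 5.46 and 4.75 FPKM in the WT and at 6.21, 6.48 and 7.44 FPKM in the Tsc1-KO libraries. Here too the Tsc1-KO values exceeded all WT values, the fitted level was 31.6% higher and the log2 fold change was 0.40 (SE 0.101, limma adjusted p = 0.104). Over the 15 alternatives its log2 fold change stayed between 0.32 and 0.52 and passed in none. Abcc5, known as MRP5, an exporter of cyclic nucleotides, was at 7.81, 8.62 and 8.25 FPKM in the WT and at 9.61, 10.7 and 9.58 FPKM in the Tsc1-KO libraries. Its groups did not overlap either, with a log2 fold change of 0.27 (SE 0.0794, limma adjusted p = 0.135). Abcc3, another basolateral exporter of conjugates, was at 0.629 to 0.783 FPKM in the WT and 0.757 to 1.46 FPKM in the Tsc1-KO libraries (log2 fold change 0.50). Abcc4, a brush border exporter of urate and cyclic nucleotides, and Abcc10 had log2 fold changes of -0.08 and 0.03. The groups overlapped for these 3.

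The sulfonylurea receptors Abcc8 and Abcc9 belong to the same family by sequence but are known as subunits of potassium channels, not as exporters. Abcc9, the form of vascular smooth muscle, was at 2.58, 3.99 and 2.43 FPKM in the WT and at 3.49, 2.90 and 3.01 FPKM in the Tsc1-KO libraries, which overlapped. Its log2 fold change was 0.09 (95% interval from -0.38 to 0.56), and Abcc8, the form of pancreatic beta cells and neurons, was at most 0.115 FPKM.

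P-glycoprotein, the exporter of many unrelated drugs, is encoded in mice by the neighbouring near copies Abcb1a and Abcb1b. Abcb1b was at 1.85, 4.05 and 1.74 FPKM in the WT and at 1.52, 1.80 and 1.58 FPKM in the Tsc1-KO libraries. Only WT replicate 2 stood apart, and the log2 fold change of -0.51 (SE 0.310, limma adjusted p = 0.426) became -0.13 without that library. Abcb1a was at 0.773, 1.33 and 1.13 FPKM in the WT and at 0.911, 0.852 and 0.619 FPKM in the Tsc1-KO libraries, with overlapping groups and a log2 fold change of -0.38. Abcb4, the phospholipid exporter of the bile canaliculus, was at 0.0437 to 0.126 FPKM and was not tested.

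The Abcb transporters of intracellular membranes had log2 fold changes from -0.17 to 0.14, and 0 of 5 passed in limma. Abcb6, a porphyrin transporter, was at 17.9, 18.7 and 21.1 FPKM in the WT and at 22.2, 20.2 and 21.2 FPKM in the Tsc1-KO libraries, and its log2 fold change of 0.14 (SE 0.0795) had the smallest p of the 5 (limma adjusted p = 0.377). Abcb8 and Abcb10, both of the inner mitochondrial membrane, had log2 fold changes of 0.06 and -0.17. The lysosomal peptide transporter Abcb9 was at -0.02 on the same scale. The summed level of the 5 was from 71.3 to 76.2 FPKM in WT and from 74.5 to 76.1 FPKM in Tsc1-KO libraries, so that the WT range enclosed the other.

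Of the Abcg transporters, Abcg2, the brush border exporter of urate and drugs, was at 198, 177 and 207 FPKM in the WT and at 175, 162 and 161 FPKM in the Tsc1-KO libraries. The Tsc1-KO values were below all WT values, although WT replicate 2 and Tsc1-KO replicate 4 differed by only 1.01 times. The log2 fold change was -0.22 (SE 0.0745, limma adjusted p = 0.178), a fitted difference of -14.2%. It was -0.10 with libraries scaled to proximal tubule markers, by the shift common to all genes. Abcg1, a cholesterol exporter, was at 1.25 to 2.65 FPKM in the WT and 1.97 to 2.43 FPKM in the Tsc1-KO libraries (log2 fold change 0.33), which overlapped, and Abcg3 was at most 0.280 FPKM.

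In several members the groups overlapped only through WT replicate 3. In 8 members, 7 of them tested, WT replicates 1 and 2 lay on 1 side of all 3 Tsc1-KO libraries and WT replicate 3 did not. These were Abcb1b, Abcb6, Slc22a4, Slc22a7, Slc22a8, Slc22a13, Slc22a23 and the untested Slco1a4. The 7 were 15.9% of the members tested, and the same pattern was found in 22.1% of all genes tested. Without WT replicate 3 the log2 fold changes of Abcb1b, Abcb6, Slc22a13 and Slc22a23 became -0.72, 0.21, 0.20 and -0.41, beside -0.51, 0.14, 0.12 and -0.17 with all libraries, and none of the 4 passed in limma (adjusted p = 0.186, 0.0994, 0.233 and 0.149). Without WT replicate 2 the log2 fold changes of Abcb1b, Abcb6, Slc22a13 and Slc22a23 were -0.13, 0.13, 0.12 and 0.02. Those of Abcb1b and Slc22a23 therefore depended on WT replicate 2 as well, and that of Slc22a23 changed its sign. Without WT replicate 3, 2 members passed as lower, Slc22a4 and Abcc6, and the share of all genes called rose to 8.41%. Without WT replicate 2, 1 member passed, Slco1a6, and without any 1 of the other 4 libraries 0 passed in limma. Those 4 fits, without WT replicate 1 and Tsc1-KO replicates 4, 5 and 6, called only 0.219, 0.787, 0.181 and 0% of all genes. Over the 15 alternatives the adjusted p in limma or limma-voom ran from 0.00626 to 0.596 for Slc22a4, from 0.0422 to 0.469 for Abcc6, from 0.0265 to 0.282 for Slco1a6 and from 0.0452 to 0.303 for Slco2b1.

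**Figure D4:**
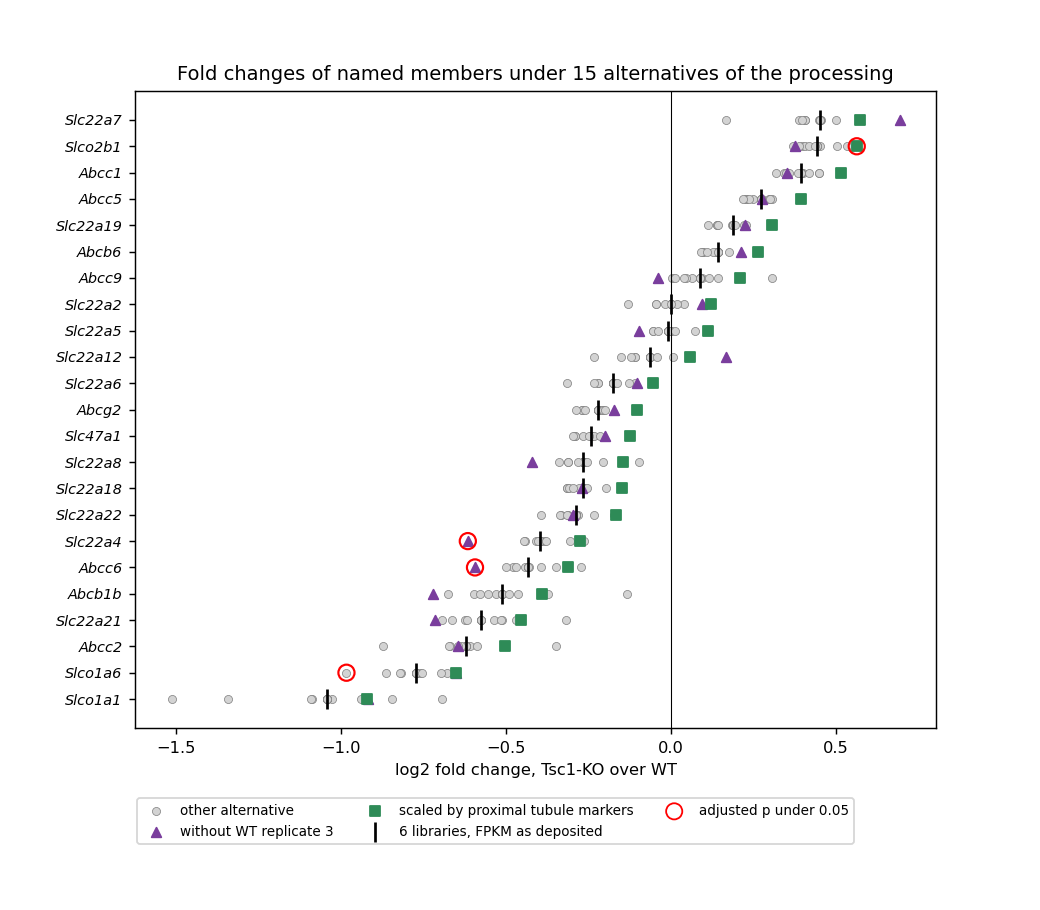
Log2 fold changes of 23 named members with all 6 libraries and under 15 alternatives of the processing. The horizontal axis is the log2 fold change, Tsc1-KO over WT, the black bar is the value from the FPKM of all 6 libraries, the triangle leaves out WT replicate 3, the square scales libraries to proximal tubule markers, the grey points are the other alternatives, and red rings mark an adjusted p under 0.05. Rings appear at 4 points only, for Slco2b1, Slc22a4, Abcc6 and Slco1a6. The squares lie to the right of the bars throughout, because that scaling moves every gene by the same amount.

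Among the genes that work with these carriers, a nucleoside carrier stood out. Of 22 partner transporters and scaffolds listed for their role, 19 were tested and 1 was higher in Tsc1-KO mice. This was Slc29a1, known as ENT1, the equilibrative carrier of nucleosides and nucleoside drugs, at 11.3, 15.1 and 11.8 FPKM in the WT and at 23.8, 24.3 and 23.7 FPKM in the Tsc1-KO libraries. The groups lay far apart, with a log2 fold change of 0.92 (SE 0.111, limma adjusted p = 0.0166). The call was lost without WT replicate 1 (limma adjusted p = 0.0705) and without any 1 of Tsc1-KO replicates 4, 5 and 6 (0.0579, 0.0852 and 0.0871). In these fits only 0.219, 0.787, 0.181 and 0% of all genes passed, against 2.11% with all libraries. The lowest limma adjusted p of Slc29a1 over the 15 alternatives was 0.00589, and its log2 fold change stayed between 0.84 and 1.05. Slc29a3, the nucleoside carrier of lysosomes and known as ENT3, was at 26.5, 25.2 and 21.8 FPKM in the WT and at 18.5, 15.5 and 16.9 FPKM in the Tsc1-KO libraries. All Tsc1-KO values were below the WT values, and the log2 fold change of -0.53 (SE 0.0982) was just outside the threshold (limma adjusted p = 0.0509) and inside it in limma-voom (adjusted p = 0.0345), with a range over the 15 alternatives from 0.0154 to 0.193.

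Slc13a3, which brings in the dicarboxylates that Slc22a6 and Slc22a8 exchange for anions, was at 187, 217 and 220 FPKM in the WT and at 175, 156 and 152 FPKM in the Tsc1-KO libraries. No Tsc1-KO value reached the WT range, with a log2 fold change of -0.37 (SE 0.0857, limma adjusted p = 0.0856). Pdzk1, the scaffold that holds apical carriers in the brush border, was at 620 to 691 FPKM in the WT and 605 to 655 FPKM in the Tsc1-KO libraries (log2 fold change -0.05). Of 22 regulators known to control transporter genes, 21 were tested and 0 passed in limma or in limma-voom. An unadjusted p under 0.05 in limma was found for 4 of them (19.0%), near the 19.2% of all genes. Cebpb, an inflammation-responsive factor, was at 8.25, 10.6 and 14.0 FPKM in the WT and at 15.1, 17.2 and 25.3 FPKM in the Tsc1-KO libraries (log2 fold change 0.80, adjusted p = 0.148 in limma). For Hnf4a the log2 fold change was -0.18 (limma adjusted p = 0.288). Without WT replicate 3, the genes of both lists that passed in limma included Slc29a1 and Cebpb as higher and Slc29a3, Slc16a9 and Nr3c1 as lower.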

How the data were processed

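Poly A RNA of 6 kidneys, 3 WT and 3 Tsc1-KO, was sequenced on an Illumina HiSeq system, 1 library per mouse as labelled. The authors used HISAT2 2.0.4 for alignment to a mouse genome, whose build is not given in the sources used here, and HTSeq 0.9.1 for counting, per the submitters' processing notes. They deposited FPKM of 15302 genes per library, and as a signal the mean normalised counts over all libraries and over each group. The authors' own fold changes, p-values and 2 lists of changed genes were not used. No source says whether the counting used strand.

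The 13230 genes whose mean reached 0.5 FPKM were analysed as log2(FPKM + 0.1) with limma 3.58.1 in R 4.3.3 (genotype as the only term, moderated variances with a trend, 2-sided p-values adjusted by Benjamini-Hochberg, threshold 0.05). Fold changes are on that scale and understate changes of low genes. The function was tested on simulated data. Whole reads could be recovered by combining both kinds of column (at most 10000 reads: 100% of 90068 values whole to a tolerance of 0.02) and entered limma-voom as 1 of 15 alternatives. P-values set the difference of the group means against the spread between these mice. In limma that spread is moderated by the spread of all genes tested. Tables were made with Python 3.11.15.

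Named with every library's value were members whose groups did not overlap with a log2 fold change of at least 0.3 in size, the 10 most abundant, and per role the member with the smallest p (20 in all), and of the partner and regulator lists the genes past the threshold and the 2 with the smallest p. Slco1a1, Slc22a4, Slc22a19 and Abcc5, the motifs and other genes were named after their values were seen. Some genes of the set and of these lists are not reported here. The pattern of names used no measured values, but the members and lists were chosen with earlier results of these data known. Lists for other kidney cell types were also counted: in limma 3 of 9 principal cell markers, 1 of 11 thick ascending limb and distal tubule markers and 2 of 2 tested erythrocyte markers were higher, as were all 9 A-IC (type A intercalated cell) transcripts that the study names from these kidneys, and 0 podocyte, endothelial, macrophage, adipose or hepatocyte markers passed.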

Additional observations from a re-analysis of the deposited data

How the results depend on the processing

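The absence of called members depended on few of the 15 alternatives. With libraries scaled to proximal tubule markers, 1 member passed as higher, 507 of all genes as higher and 17 as lower, beside 248 and 31 with FPKM as deposited. Without a variance trend, 18 of all genes passed as lower. The median log2 fold change of the members was -0.0761 with median-of-ratios scaling, 0.0905 with proximal tubule scaling and -0.0736 with limma-voom. Of the partner and regulator genes, 1 (Slc29a3) passed as lower with a pseudocount of 1 FPKM, with no filter, with median-of-ratios scaling, with robust moderation and with limma-voom.

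Leaving out 1 library at a time, 0 to 2 members passed as lower and 0 as higher, 0 to 713 of all genes as higher and 0 to 402 as lower, the largest counts coming from the fit that omits WT replicate 3, and counts of 0 from the one that omits Tsc1-KO replicate 6. The partner and regulator genes gave 0 to 2 higher and 0 to 4 lower calls, and the members' median ran from -0.0842 to 0.0003. Among the members given with every library's value, the log2 fold change changed sign for Slc22a2, Slc22a5, Slc22a12 and Abcc9. For Slc22a2 it was -0.045 with median-of-ratios scaling, -0.0455 with limma-voom and from -0.1306 to 0.0946 with 1 library left out. For Slc22a5 it was 0.1131 with proximal tubule scaling and from -0.0961 to 0.0735 with 1 library left out. For Slc22a12 these values were 0.0585 and from -0.2324 to 0.168. For Abcc9 it ran from -0.0386 to 0.3072 with 1 library left out. Over the 15 alternatives the sign also changed for other members, with values on both sides of zero. Among them were Abcb8 (from -0.04 to 0.18), Abcc4 (from -0.25 to 0.11) and Slc22a23 (from -0.41 to 0.02). Abcb9, Abcc10, Slc22a17, Slc22a28, Slco2a1, Slco3a1 and Slco4a1 were among them as well. Of all these changes the cause was not tested.

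No paired analysis was possible because the labels used here give no litter or pairing of the mice. The 3 mice per group limit what limma can call, and the 9 members under 0.5 FPKM had adjusted p in limma from 0.200 to 0.991 when no filter on low values was used.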
